A study of Mus musculus with 12 samples.

Results

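This section describes 9 genes of tau and amyloid biology and of inherited Alzheimer risk in the hippocampus of mice without the chromatin protein DEK. The genes were chosen by name, as *Mapt*, *App*, *Bace1*, *Adam10*, *Sorl1*, *Bin1*, *Picalm*, *Apoe* and *Clu*. No rule on measured values was used, but earlier results of these data were known when they were chosen. All 9 are among the 26409 genes of the deposited table and among the 18197 genes tested. The 12 hippocampal libraries divide by genotype, 6 WT and 6 *Dek* cKO, and by sex, with 3 libraries of each sex within a genotype. In *Dek* cKO mice, exons 3 and 4 of *Dek*, flanked by loxP sites, had been removed in the germline by CMV-Cre, after which the Cre transgene was bred out. The deletion is thus present in every cell type and from conception on, in a line kept on a C57Bl/6 background. The mice were 6 to 12 months old by the study's methods, and all of them had been through behavioral testing within the 6 weeks before the tissue was taken. No library comes from a transgenic amyloid or tau model, so every transcript here is that of the mouse's own gene.

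Values are given in TPM, a unit that takes transcript length into account and sets each library to the same total, so that levels can be compared between genes. The reads behind a value are unknown. *Dek* itself fell in every *Dek* cKO library, from 48.3 ± 2.58 TPM (SD, n = 6) in WT to 7.23 ± 1.32 TPM (SD, n = 6) in *Dek* cKO mice (log2 fold change -2.74, adjusted p = 1.17e-08, limma). Across all genes, 27 of 18197 (0.148%) were called in the comparison of both sexes, at an adjusted p under 0.05 and a fold change over 1.2, 3 (0.0165%) in females, 3 (0.0165%) in males and 0 in the test of a difference between the sexes, where 770 genes had an unadjusted p under 0.05 in limma. In these libraries, 10 markers of hippocampal subfields summed to between 417 and 564 TPM, and 10 neuron markers to between 5943 and 6773 TPM. No other tissue was compared, so these sums do not test the tissue label. *Ttr*, the leading gene of the choroid plexus next to the hippocampus, ranged from 37.5 to 4289 TPM over the libraries, within both genotypes. These features of the libraries bear on the results below. The female WT libraries are the 3 whose names begin with C57, and the other 9 names begin with CMV, so that this naming and the female WT group cannot be told apart. The Y-linked gene *Eif2s3y* reached 72.7 TPM in the library labelled female cKO replicate 3, as in male libraries, and 0.111 TPM in the one labelled male cKO replicate 1, and the labels were kept. Male cKO replicate 3 had 1267 TPM of the astrocyte filament gene *Gfap*, against 208 to 437 TPM in all other libraries. Over all genes tested, female WT replicate 1 had a median correlation of 0.951 with the other libraries and male cKO replicate 3 of 0.958, while the other 10 libraries lay between 0.964 and 0.969.

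As background, the amyloid precursor protein, encoded by *App*, is cut along competing routes. The β-secretase BACE1 begins the route that ends in amyloid-β peptide, and the α-secretase ADAM10 cuts within the amyloid-β stretch and so prevents its release. SORL1 is a sorting receptor that holds the precursor away from the amyloid route, whereas BIN1 and PICALM act in membrane bending and in clathrin-mediated endocytosis. APOE and CLU are the lipid-carrying apolipoproteins of the brain, made in large part by astrocytes, and both bind amyloid-β. Tau, the product of *Mapt*, binds axonal microtubules and is the protein of neurofibrillary tangles. Variants near *APOE*, *CLU*, *BIN1*, *PICALM*, *SORL1* and *ADAM10* are associated with the risk of late-onset Alzheimer's disease in humans.

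The genes lie apart in the genome (GRCm38, GENCODE M21, all protein-coding). *Mapt* lies on chromosome 11 from 104231390 to 104332090 on the plus strand and *App* on chromosome 16 from 84949685 to 85173766 on the minus strand. *Bace1* (45838580 to 45864399, plus), *Adam10* (70678997 to 70780229, plus) and *Sorl1* (41964720 to 42124297, minus) share chromosome 9. *Apoe* (19696109 to 19699188, minus) and *Picalm* (90130213 to 90213465, plus) share chromosome 7, *Clu* lies on chromosome 14 from 65968483 to 65981547 on the plus strand. *Bin1* shares its chromosome with no other of the 9 genes.

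The 250 bases before the RefSeq start were available for 5 of the 9 genes, *App*, *Adam10*, *Apoe*, *Picalm* and *Sorl1*. Those of *Picalm*, *Sorl1* and *Apoe* are printed, because their windows end where the annotated gene begins and because they belong to correlated pairs. In these pairs, described further on, *Picalm* varied in the same direction as *App*, and *Sorl1* in the opposite direction to *Apoe*. Capitals mark GGGCGG, the GC box bound by Sp1-type factors, on either strand.
*Picalm*, chr7:90129963-90130212, plus strand: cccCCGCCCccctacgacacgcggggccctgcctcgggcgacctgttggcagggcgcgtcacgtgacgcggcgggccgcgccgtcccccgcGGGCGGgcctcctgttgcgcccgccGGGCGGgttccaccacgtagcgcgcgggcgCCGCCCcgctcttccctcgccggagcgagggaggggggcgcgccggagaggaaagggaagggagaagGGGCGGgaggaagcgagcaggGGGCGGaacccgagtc
*Sorl1*, chr9:42124298-42124547, minus strand: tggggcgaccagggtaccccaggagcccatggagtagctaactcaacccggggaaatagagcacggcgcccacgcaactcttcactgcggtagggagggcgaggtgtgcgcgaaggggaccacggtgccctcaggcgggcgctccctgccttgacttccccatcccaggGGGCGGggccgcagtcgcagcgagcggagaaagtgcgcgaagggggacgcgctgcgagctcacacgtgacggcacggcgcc
*Apoe*, chr7:19699189-19699438, minus strand: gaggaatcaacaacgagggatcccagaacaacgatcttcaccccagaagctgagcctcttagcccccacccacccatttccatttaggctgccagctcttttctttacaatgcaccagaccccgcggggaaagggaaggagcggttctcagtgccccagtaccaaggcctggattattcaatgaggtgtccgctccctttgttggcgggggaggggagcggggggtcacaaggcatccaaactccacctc
The *Picalm* window holds 6 GC boxes and a GC content of 79.2%, higher than in 98.4% of all promoter windows. That of *Sorl1* holds 1 GC box at 69.6% GC and that of *Apoe* none at 57.2% GC. Among 32851 RefSeq promoter windows, 32.7% hold GGGCGG, 33.8% hold CCAAT and 12.4% hold TATAAA, and TATAAA is in none of the 5 windows, on either strand.

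The order of levels was almost the same in every library. *Apoe* was the most abundant, at 2896 ± 254 TPM (SD, n = 12), and ranked 14 in the whole table. *Clu* followed at 875 ± 92.6 TPM and *App* at 778 ± 63.3 TPM, the ranks 68 and 78 of the table. *Mapt* had 254 ± 19.0 TPM, *Bin1* 135 ± 6.27 TPM, *Sorl1* 75.8 ± 9.40 TPM and *Bace1* 59.4 ± 3.89 TPM. *Adam10* had 40.0 ± 1.5 TPM and *Picalm*, the lowest, 25.2 ± 3.01 TPM. Only 2 pairs of neighbours in this order had overlapping ranges. *Clu* was above *App* in 10 of 12 libraries, and *Sorl1* was above *Bace1* within each of the 12 libraries although their ranges across libraries overlapped.

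**Figure D1:**
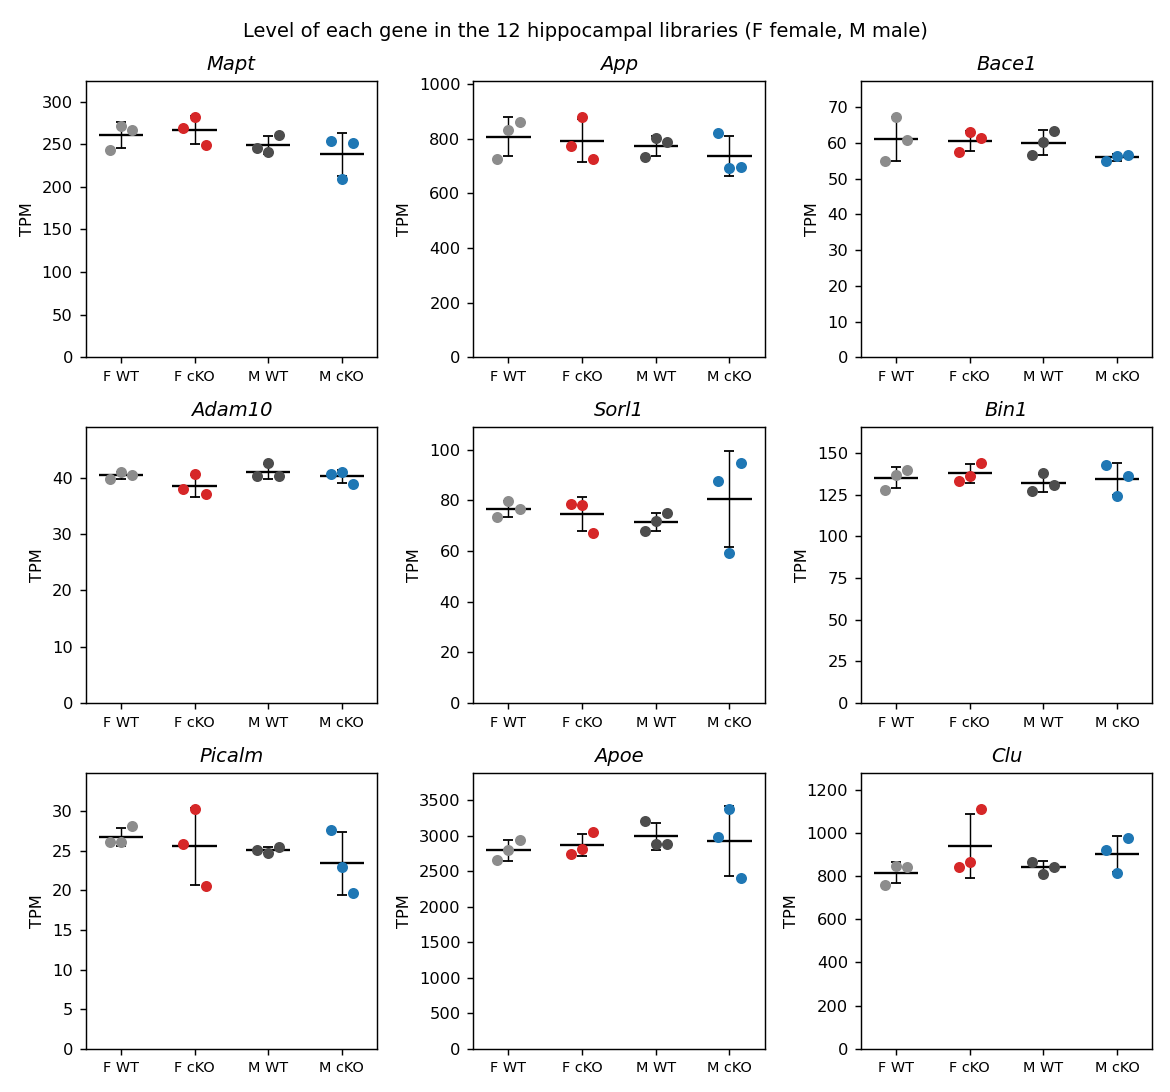
TPM of each of the 9 genes (vertical axes, from 0) in the 3 libraries of each group (F female, M male), with horizontal lines at group means and bars for 1 SD. WT and *Dek* cKO libraries overlap in every panel, and the *Dek* cKO points of *Picalm*, *Sorl1* and *Clu* lie farther apart than the WT points.

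None of the 9 genes was called in *Dek* cKO against WT mice, in either sex or in both together. In the main fits, on the labels as given, none had an unadjusted p under 0.05 in limma. On these labels the values of the genotypes overlapped for all 9 genes in each of the 3 comparisons. Of all genes, 0.676% did not overlap between the genotypes with both sexes, 12% in females and 9.75% in males. With the sexes by which the study's quality figure colours the libraries, *App* and *Picalm* did not overlap in males. The share of all genes was not taken on those sexes. With both sexes, 3 of the 9 log2 fold changes were above 0 and their median was -0.02, beside a median of 0.02 and 55.8% above 0 over all genes tested. The lowest adjusted p of a member was 0.765 in both sexes, 0.889 in females and 0.908 in males (limma).

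Of the substrates, *App* had 726, 832 and 862 TPM in female WT and 774, 879 and 726 TPM in female cKO libraries. In males it had 733, 802 and 789 TPM in WT and 819, 693 and 695 TPM in cKO libraries. The *Dek* cKO range spanned the WT range, with the highest and the lowest of all 12 values. On the sexes of the study's quality figure, the male cKO values were 726, 693 and 695 TPM, all below the male WT values. The log2 fold change of *App* was then -0.14 in males (adjusted p = 0.666, limma) and 0.03 in females, against -0.08 and -0.02 on the labels as given. The log2 fold change with both sexes was -0.05 ± 0.07 (SE), and its 95% interval ran from a level 12.6% lower to one 6.52% higher in *Dek* cKO mice (adjusted p = 0.946, limma). *Mapt* had between 241 and 272 TPM in WT (median 254) and between 209 and 282 TPM in *Dek* cKO libraries (median 253). Both ends of the *Mapt* range were again *Dek* cKO libraries, and the log2 fold change was -0.02 ± 0.06 (SE), with an interval from -10.3% to 8.60% (adjusted p = 0.989, limma). Without male cKO replicate 2, which had the lowest *Mapt* value, the log2 fold change was 0.03.

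The secretases varied little. *Bace1* had 55.0, 60.5 and 67.3 TPM as the lowest, median and highest WT value and 54.9, 57.1 and 63.0 TPM in *Dek* cKO mice. In males the 3 *Dek* cKO values lay between 54.9 and 56.8 TPM and the WT values between 56.6 and 63.5 TPM, so only the highest *Dek* cKO value exceeded the lowest WT value (log2 fold change -0.10 ± 0.08, SE, adjusted p = 0.908, limma). The log2 fold change with both sexes was -0.05 ± 0.05 (SE), with an interval from -11.2% to 4.54%. *Bace1* overlaps *Rnf214*, a ubiquitin ligase gene on the opposite strand, which had 38.8 ± 2.86 TPM in WT and 36.4 ± 1.42 TPM in *Dek* cKO mice (SD, n = 6). The library kit keeps strand by the study's methods, but whether the quantification used it is not given in the sources used here. *Adam10* had the narrowest spread of the 9 genes, and only 0.665% of all tested genes had a smaller SD within genotypes. It ranged from 39.7 to 42.6 TPM in WT and from 37.0 to 41.0 TPM in *Dek* cKO mice, and the interval of its difference, from -9.03% to 2.44%, was accordingly the narrowest (log2 fold change -0.05 ± 0.04, SE, adjusted p = 0.897, limma).

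The balance of α- to β-secretase was also read within each library, where it does not depend on the scaling of the library. The ratio of *Adam10* to *Bace1* was 0.675 ± 0.0463 (SD, n = 6) in WT and 0.677 ± 0.0529 in *Dek* cKO mice, a log2 difference of 0.00 (two-sided exact permutation test, p = 0.963). It ranged from 0.609 to 0.722 in WT and from 0.602 to 0.742 in *Dek* cKO libraries, so the genotypes covered the same span. This ratio was 1 of 3 tested, and the smallest p that the exact test allows with 6 against 6 libraries is 0.00216.

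Of the genes of sorting and endocytosis, *Sorl1* had 67.8, 71.7 and 75.1 TPM in male WT and 87.6, 59.2 and 94.8 TPM in male cKO libraries. In females it had 73.6, 79.9 and 76.5 TPM in WT and 78.6, 78.2 and 67.0 TPM in cKO libraries. The male *Dek* cKO group thus held both the 2 highest values and the lowest value of the 12. The log2 fold change was 0.14 ± 0.14 (SE) in males and -0.04 ± 0.14 (SE) in females, and the difference between the sexes was not significant (-0.18 ± 0.20, SE, adjusted p = 0.966, limma). The male value moved with single libraries. Without male cKO replicate 2 the log2 fold change was 0.35 (adjusted p = 0.276, limma) and without male cKO replicate 3 it was 0.01. With the sexes of the study's quality figure, *Sorl1* had 0.01 in males and 0.09 in females, and the difference between the sexes turned to 0.07. With both libraries of conflicting sex left out, it had 0.07 in males and 0.03 in females. With both sexes the log2 fold change was 0.05 ± 0.10 (SE), or -0.01 without male cKO replicate 3. The ratio of *Sorl1* to *App* was 0.0939 ± 0.00469 (SD, n = 6) in WT and 0.102 ± 0.0188 in *Dek* cKO mice (two-sided exact permutation test, p = 0.420, adjusted over the 3 ratios 0.630). Its highest value, 0.137, came from male cKO replicate 3.

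*Picalm*, the clathrin assembly gene, had 26.1, 26.1 and 28.1 TPM in female WT and 25.8, 30.3 and 20.5 TPM in female cKO libraries. In males it had 25.1, 24.7 and 25.4 TPM in WT and 27.6, 22.9 and 19.7 TPM in cKO libraries. The 6 WT values thus lay within 24.7 to 28.1 TPM, with *Dek* cKO values on both sides of them. The log2 fold change was -0.10 ± 0.10 (SE) with both sexes, with an interval from -19.1% to 7.82% (adjusted p = 0.917, limma). Leaving out single libraries, it lay between -0.16 (without female cKO replicate 2) and -0.04 (without male cKO replicate 3). In males the log2 fold change of *Picalm*, -0.11, shifted in both directions with the choice of *Dek* cKO libraries. Leaving out both libraries of conflicting sex, of which male cKO replicate 1 is the male-labelled one, gave -0.24 (adjusted p = 0.555, limma). Dropping male cKO replicate 3 instead gave 0.00. With the sexes of the study's quality figure it was -0.26 in males (unadjusted p = 0.00715, adjusted p = 0.573, limma). The male cKO values were then 20.5, 22.9 and 19.7 TPM, all below the male WT values. The male log2 fold change thus depended on the labels of sex as well as on single libraries. *Bin1*, a membrane-bending gene used by oligodendrocytes as well as neurons, ranged from 127 to 140 TPM in WT and from 124 to 144 TPM in *Dek* cKO mice. Its log2 fold change was 0.03 ± 0.04 (SE), with an interval from -4.42% to 8.81% (adjusted p = 0.957, limma). The summed level of 10 oligodendrocyte markers ranged from 2464 to 5096 TPM in WT and from 2831 to 4631 TPM in *Dek* cKO libraries, and its part in the *Bin1* values was not tested.

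**Figure D2:**
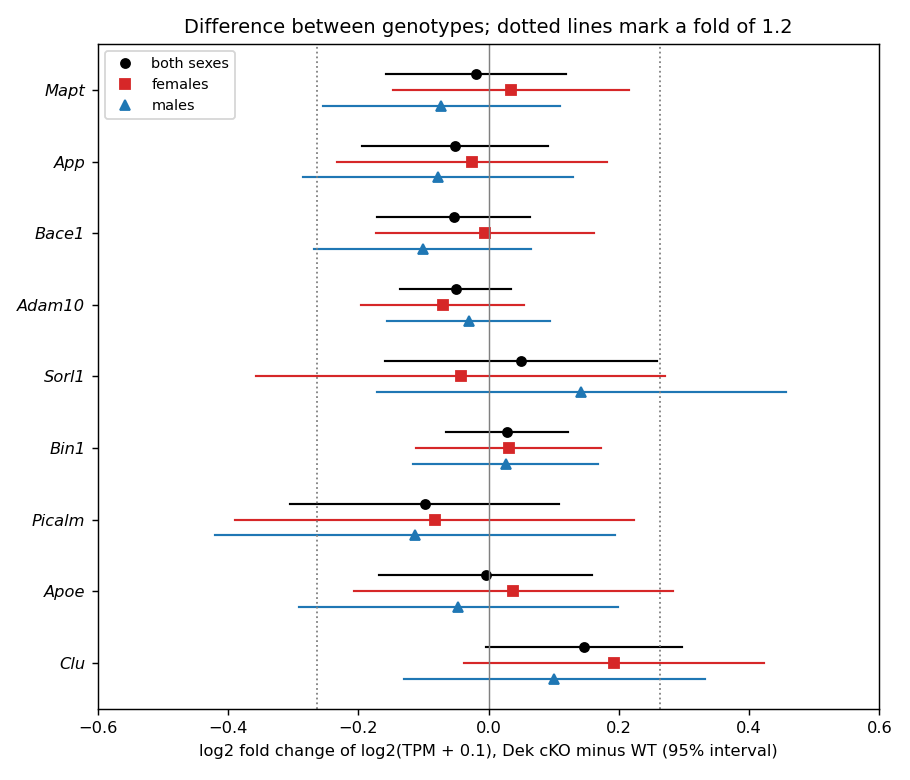
Log2 fold change (horizontal axis) of each gene in *Dek* cKO against WT mice with its 95% interval, for both sexes, females and males. Every interval includes 0, and that of *Clu* with both sexes reaches from -0.00 to 0.30.

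Of the apolipoproteins, *Clu* had the largest log2 fold change of the 9 genes with both sexes and in females. In males those of *Sorl1* (0.14), *Picalm* (-0.11) and, narrowly, *Bace1* (-0.1014) were larger in size than that of *Clu* (0.1009). With both libraries of conflicting sex left out, that of *Picalm* with both sexes (-0.09) was larger in size than that of *Clu* (0.07). In females that of *Mapt* (0.08) was then larger than that of *Clu* (0.06). *Clu* had 759, 847 and 843 TPM in female WT and 843, 864 and 1112 TPM in female cKO libraries. In males it had 867, 808 and 844 TPM in WT and 920, 812 and 976 TPM in cKO libraries. The *Dek* cKO libraries were above the highest WT library in 3 cases and, in the other 3, within the WT range. The log2 fold change was 0.15 ± 0.07 (SE) with both sexes (adjusted p = 0.765, limma), with an interval from -0.286% to 22.9%, and 7.25% of all genes had a smaller p. The highest value came from the library labelled female cKO replicate 3. With both libraries of conflicting sex left out, the log2 fold change of *Clu* was 0.07 (adjusted p = 0.845, limma). Without female cKO replicate 3 alone it was 0.09 with both sexes and 0.06 in females, in place of 0.19. With both sexes it was 0.18 without male cKO replicate 2 (adjusted p = 0.531, limma), 0.13 without male cKO replicate 3 and 0.12 without female WT replicate 1.

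*Apoe* did not follow *Clu* over the 12 libraries (Pearson's r of log2 values -0.038). Within the 6 WT libraries r was 0.78, and within the 6 *Dek* cKO libraries it was -0.218. *Apoe* had 2654, 2795 and 2941 TPM in female WT and 2752, 2809 and 3049 TPM in female cKO libraries. In males it had 3210, 2892 and 2882 TPM in WT and 2982, 3384 and 2404 TPM in cKO libraries. The highest and the lowest library were both male *Dek* cKO, and the log2 fold change with both sexes was -0.00 ± 0.08 (SE), with an interval from -11.0% to 11.6% (adjusted p = 0.999, limma). Without male cKO replicate 3 it was 0.05. As both genes are used by astrocytes, the summed level of 10 astrocyte markers was taken beside them. It ranged from 2013 to 2226 TPM in WT and from 1994 to 2921 TPM in *Dek* cKO libraries. Both *Dek* cKO libraries with the most *Clu*, female cKO replicate 3 and male cKO replicate 3, also had the 2 highest astrocyte sums of the 12, 2395 and 2921 TPM, but the second of these was carried by *Gfap*. Without *Gfap*, the other 9 markers summed to 1654 TPM in male cKO replicate 3, the lowest of the 12 libraries, and to 1958 TPM in female cKO replicate 3, the highest. In male cKO replicate 3 the water channel gene *Aqp4* was also the highest of the 12, at 99.4 TPM, whereas the gap junction gene *Gja1* (68.6 TPM) and the glycolytic gene *Aldoc* (522 TPM) were the lowest. The part of astrocyte content in the *Clu* values was not tested. In bulk tissue, fewer cells of a type and less RNA per cell cannot be told apart.

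Within a library, the ratio of *Apoe* to *Clu* lay between 3.30 and 3.70 in the 6 WT mice, with a mean of 3.50 ± 0.138 (SD). In *Dek* cKO mice it was 3.27, 3.25 and 2.74 in females and 3.24, 4.17 and 2.46 in males, with a mean of 3.19 ± 0.583 (SD, n = 6). Thus 5 *Dek* cKO libraries were below all WT libraries and male cKO replicate 2 was above all of them. The log2 difference was -0.15 (two-sided exact permutation test, p = 0.219, adjusted over the 3 ratios 0.630). Without male cKO replicate 2 it was -0.23 (exact permutation p = 0.00216, adjusted 0.00649). That p was fixed by the order of the values, since all *Dek* cKO libraries that remained lay below all WT libraries. It adds no support for a difference, and 1 library, male cKO replicate 2, decides the call. This library also had the highest summed level of 10 meninges markers, 3357 TPM against 508 to 2392 TPM in the others, and the part of these markers in its ratio was not tested.

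**Figure D3:**
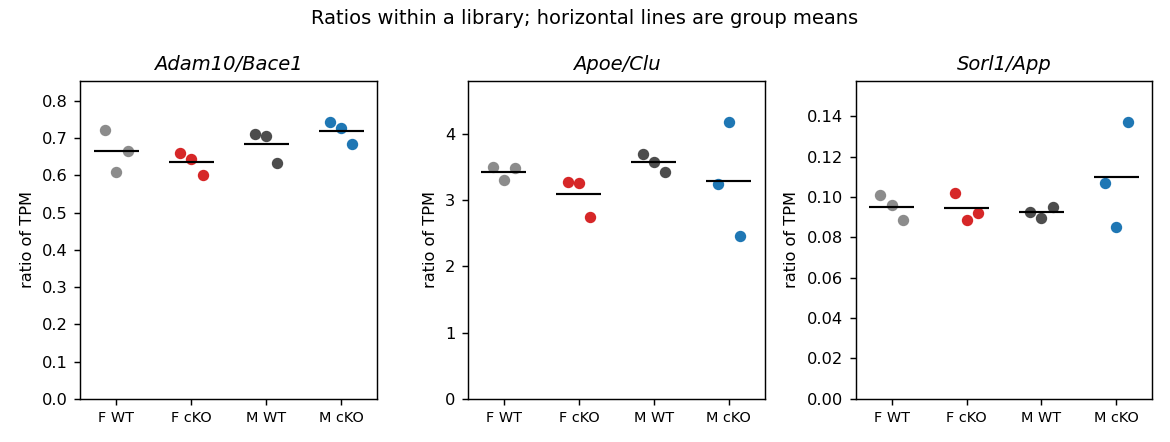
Ratios of TPM within each library (vertical axes, from 0) by group, with lines at group means. The *Apoe* to *Clu* ratio of the WT mice stays between 3.30 and 3.70, and that of the *Dek* cKO mice spans 2.46 to 4.17.

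The *Dek* cKO libraries differed more among themselves than the WT libraries for 8 of the 9 genes, all except *Bace1*. The ratio of the SD of log2 values in *Dek* cKO to that in WT mice was 3.73 for *Picalm*, larger than for 96.8% of all genes, 3.07 for *Sorl1* (93.8%) and 2.40 for *Clu* (87.3%). As coefficients of variation, *Picalm* went from 4.64% in WT to 17.0% in *Dek* cKO mice, *Sorl1* from 5.59% to 16.8%, *Clu* from 4.70% to 12% and *Apoe* from 6.37% to 11.3%. A larger spread in *Dek* cKO libraries was common in the whole table, with 67.0% of genes and a median ratio of 1.26. Without male cKO replicate 3, the share of genes was 58.7%. Leaving out single libraries, the ratio of *Picalm* lay between 3.17 and 7.20 (the latter without female WT replicate 3) and that of *Sorl1* between 2.34 and 4.22. The ratio of *Clu* was 1.52 without female cKO replicate 3 and 4.48 without female WT replicate 1. Without male cKO replicate 2, that of *Mapt* was 1.00 in place of 1.96 and that of *Bin1* was 0.791 in place of 1.27, so the count of 8 genes depends on this library. The ratio of *Adam10* was 3.92 without male WT replicate 2, in place of 1.81, and that of *Apoe* 2.83 without male WT replicate 1, in place of 1.82. These spreads are a description and were not tested.

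**Figure D4:**
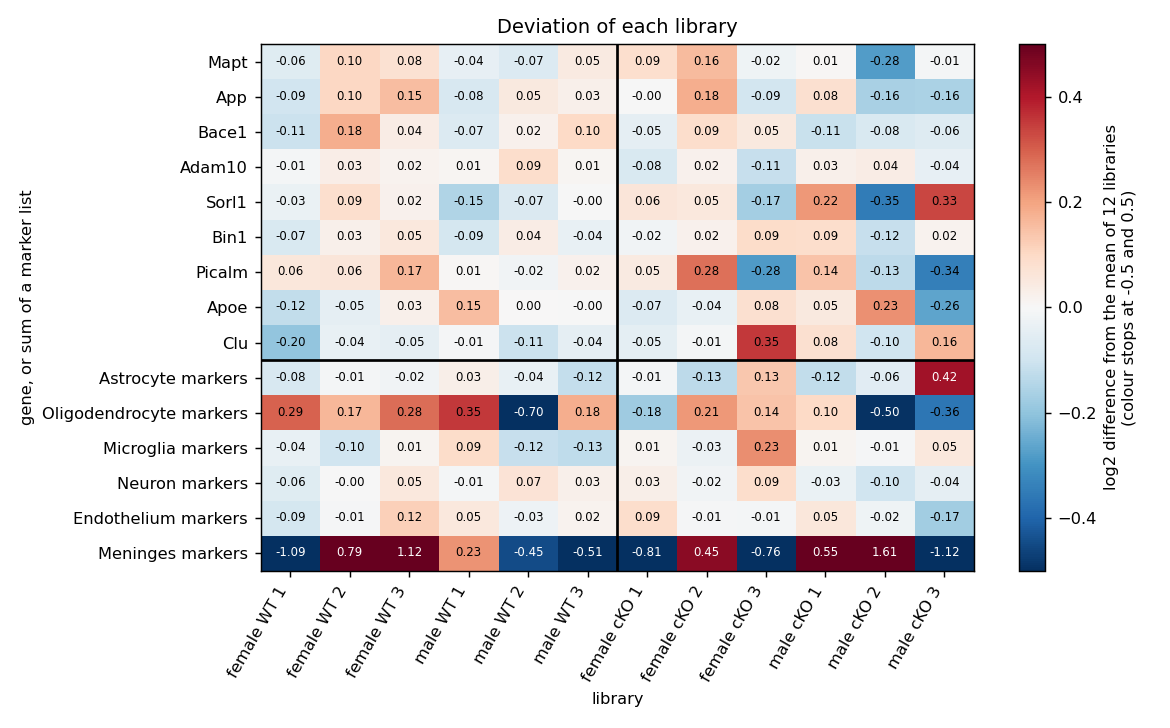
Log2 difference of each library from the mean of the 12 libraries, for the 9 genes (above the line) and for summed marker lists (below), with WT libraries on the left and *Dek* cKO libraries on the right. Male cKO replicate 3 combines low *Picalm* and *Apoe* with high *Sorl1* and an astrocyte sum that is high through *Gfap*, and male cKO replicate 2 combines low *Mapt* and *Sorl1* with high *Apoe* and meninges markers.

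Across the 12 libraries, correlations were computed for all 36 pairs of the genes, on log2 values. Pearson's r ranged from -0.799 to 0.821 with a median of 0.130, and 3 pairs had an adjusted p under 0.05 by 100000 permutations. *App* and *Picalm* rose and fell together (r = 0.821, permutation p adjusted over the pairs 0.0212, Spearman's rho = 0.811, adjusted 0.0792). Their r was 0.746 without the 2 libraries farthest from the median of *App*, and 0.875 within the 9 CMV-named libraries, which include all *Dek* cKO libraries. It was 0.556 in the 6 WT and 0.922 in the 6 *Dek* cKO libraries. *Mapt* and *App* had r = 0.735 (permutation p adjusted 0.0383, rho = 0.720, adjusted 0.171), which was 0.582 without the farthest libraries and 0.686 in the CMV-named ones. *Apoe* and *Sorl1* ran opposite to each other (r = -0.799, permutation p adjusted 0.0383, rho = -0.657, adjusted 0.171). The size of that relation depended on the 2 farthest libraries, both male *Dek* cKO, since r was -0.396 without them. In the CMV-named libraries, which include them, r was -0.857. In the 6 WT libraries, which do not include them, it was -0.607. The C57-named libraries are too few for a value of their own. All points share the scaling of their library and the makeup of the dissected tissue.

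For each gene, the most similar gene was sought among the 14040 genes that averaged 1 TPM or more, by Pearson's r over the 12 libraries. These values are the highest of a long search and carry no test. *Bin1* varied most closely with *Sbf1* (r = 0.961) and *Mrtfa* (0.948), *Mapt* with *Mgat5* (0.943) and *Dele1* (0.936), and *Sorl1* with *Poglut1* (0.930). *App* was nearest to *Kmt2b* (0.934) and *Trappc9* (0.922), *Clu* to *Psmd4* (0.933) and *Tmem129* (0.922), and *Picalm* to *Vars2* (0.923) and *Crebbp* (0.922). *Adam10* was nearest to *Sh3gl3* (0.926) and *Cmss1* (0.904), *Apoe* to *Vmac* (0.880) and *Slc7a11* (0.879), and *Bace1*, with the lowest values, to *Syt11* (0.854) and *Sp2* (0.836). No gene of the 9 was among the 2 nearest of another.

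The other genes of these pathways were read from lists of 92 genes, of which 88 were tested. None was called in any comparison (limma). At an unadjusted p under 0.05 there were 3 of 88 genes with both sexes, 5 in females, 2 in males and 3 in the interaction, while the shares over all genes were 6.64%, 5.79%, 5.45% and 4.23%. The median log2 fold change of the 88 genes with both sexes was 0.00, against 0.02 over all genes. Up to 2 genes with the smallest p are named for each list.

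Among relatives and partners of the precursor, 3 of 9 tested genes were above 0, with a median of -0.01. *Itm2b*, the familial dementia gene *BRI2*, had a log2 fold change of -0.09 ± 0.07 (SE) and *Apba1*, an adaptor of the precursor's tail, one of -0.08 ± 0.06. *Aplp1*, a paralog of *App* that yields no amyloid-β, had 835 ± 42.6 TPM in WT and 838 ± 37.0 TPM in *Dek* cKO mice (SD, n = 6). Among the other secretase genes 4 of 9 were above 0, with a median of -0.02. *Aph1b*, of the γ-secretase complex, had -0.07 ± 0.07 and *Bace2*, at 0.325 to 1.27 TPM, -0.27 ± 0.30. *Ncstn*, the substrate-binding subunit of γ-secretase, had 0.02 ± 0.04, and was added after its values were seen. *Adam9* is listed at or near 0 in every library and was not tested.

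Among kinases, phosphatase subunits and partners of tau, 12 of 22 genes were above 0, with a median of 0.00. *Stub1*, which encodes the ubiquitin ligase CHIP that marks tau for degradation, had 36.9 to 41.3 TPM in WT and 33.1 to 37.2 TPM in *Dek* cKO mice (log2 fold change -0.12 ± 0.04, SE, adjusted p = 0.664, limma). Genes of amyloid-β clearance and apolipoprotein receptors were above 0 in 14 of 16 cases, with a median of 0.08, and 0 passed. In females this was 8 of 16 with a median of -0.01 and in males 15 of 16 with a median of 0.10. Over all genes tested, 54.3% were above 0 in females and 55.3% in males. Both groups hold a library of conflicting sex, and these counts were not taken without them, so they are no evidence of a sex difference. *Ctsb*, a lysosomal protease, had 0.08 ± 0.04 and *Ece2*, an endothelin-converting enzyme that can degrade amyloid-β, 0.10 ± 0.07.

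Of the retromer subunits and VPS10 receptors, the family of *Sorl1*, 3 of 10 were above 0, with a median of -0.02. *Sort1*, which encodes sortilin, had 191 to 213 TPM in WT and 174 to 202 TPM in *Dek* cKO mice, with 5 of 6 *Dek* cKO values at or below 194 TPM (log2 fold change -0.12 ± 0.04, SE, adjusted p = 0.628, limma). *Vps29*, a retromer subunit, had -0.08 ± 0.05. Of the other genes at Alzheimer risk loci, 12 of 22 were above 0, with a median of 0.00. *Cass4*, a scaffold gene, had 0.415 to 1.21 TPM in WT and 0.814 to 1.97 TPM in *Dek* cKO mice (log2 fold change 0.65 ± 0.27, SE, adjusted p = 0.687, limma), a level at which the added 0.1 TPM lowers the fold change. *Spi1*, the myeloid factor PU.1, had 0.28 ± 0.15, and the summed level of 10 microglia markers ranged from 416 to 485 TPM in WT and from 446 to 534 TPM in *Dek* cKO libraries. Its part in the *Spi1* values was not tested.

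**Figure D5:**
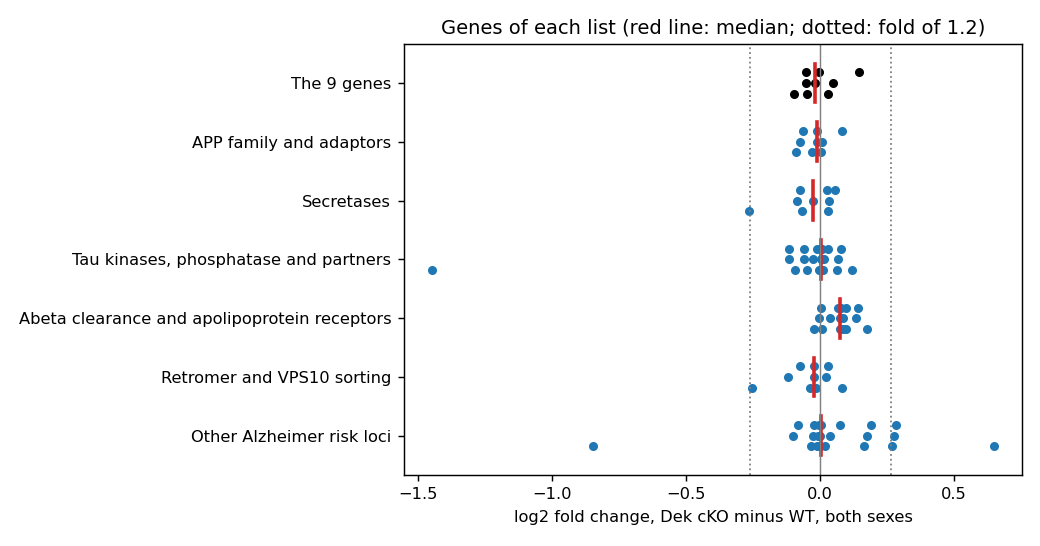
Log2 fold change with both sexes (horizontal axis) for the 9 genes and for every tested gene of each list, with the median as a red line. The 9 genes lie between -0.10 and 0.15, and the point near -1.45 is *Mark4*, which is listed at or near 0 in most libraries.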

How the data were processed

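Levels were deposited by the authors as TPM in a single table, 1 column a library (12 in all). The study's methods describe poly-A selected, stranded, paired-end libraries aligned to GRCm38 with STAR and quantified with Salmon, while the submitters' processing notes name kallisto and mm10, and which of these wrote the TPM is not given in the sources used here. TPM keeps no read counts, so the depth is unknown and no counting error is given. Columns sum to between 825750 and 845553 TPM. Gene IDs were matched to GENCODE M21, which names 25245 of 26409 genes.

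Genes averaging 0.1 TPM or more (18197) were tested on log2(TPM + 0.1), which makes fold changes of low genes smaller. The count model of the study could not be run on TPM, so limma (version 3.58.1, R 4.3.3) was used, two-sided, with its variance prior trended on the mean level. Both sexes were compared in a fit of 6 against 6 libraries, and females, males and the interaction in 1 fit of 4 groups. Benjamini-Hochberg adjustment ran over all genes tested, and calls needed an adjusted p below 0.05 and a change of more than 1.2-fold. Each library is taken as 1 mouse, after the study's methods. Ratios were tested by exact permutation of the libraries and correlations with 100000 permutations. Marker sums add the TPM of 10 genes a list. The rule for named genes was all 9 members, *Dek*, Y-linked genes, the 2 genes of each list with the smallest p with both sexes, and the 2 nearest genes of each member. *Aplp1*, *Ncstn*, *Rnf214*, *Mark4*, *Adam9*, *Mef2c*, *Mag*, *Lrp8*, *Aqp4*, *Gja1* and *Aldoc* are outside it and were chosen after their values were seen. Results for some genes under this rule are not reported here. The members and lists were chosen with earlier results of these data known. Promoter sequences are from RefSeq (GRCm38.p6). Replicate numbers did not pair the samples (correlations of same-numbered libraries between -0.0385 and 0.0445). The limma fits were tested on simulated data. Figures and summaries used Python 3.11.15, pandas 2.3.3, numpy 2.4.6, scipy 1.17.1 and matplotlib 3.10.9. Alternatives changed the value added, the filter, the scaling, the prior variance, the covariates, the sex of the conflicting libraries and the set of libraries.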

Additional observations from a re-analysis of the deposited data

How the results depend on the processing

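None of the 9 genes was called under any alternative in any comparison. The ratio of *Apoe* to *Clu* passed only without male cKO replicate 2, at -0.23. The other *Dek* cKO libraries all lay below the WT libraries, so that pass was fixed by leaving this library out. Counts of all genes and signs of small differences moved, and the cause was not tested. The genes called with both sexes, 27, were 17 with no filter, 16 without both libraries of conflicting sex, 8 in the CMV-named libraries and 13 to 27 when single libraries were left out (fewest without female cKO replicate 2). In females, 3 became 7 with no trend in the prior variance, 9 with the sexes by which the study's quality figure colours them, 11 without the conflicting libraries, 1 on the 6 female libraries alone and 1 to 7 with single libraries left out. In males, 3 became 6 with no filter, 6 with no trend, 5 with the colours' sexes, 7 without the conflicting libraries and 2 to 7 with single libraries left out. In the interaction, 0 became 2 with no filter, 2 with no trend, 3 with the colours' sexes, 2 without the conflicting libraries and 0 to 1 with single libraries left out. A replicate block, used although same-numbered libraries shared only a number, gave 3 genes with both sexes, 1 in females and 1 in males. Log2 fold changes near 0 turned sign. In the CMV-named libraries *Mapt* was 0.01 with both sexes and the *Adam10* to *Bace1* ratio -0.02. Without the conflicting libraries, *Bin1* was -0.01 with both sexes and -0.02 in males, and in females *App* was 0.04, *Apoe* -0.01, *Picalm* 0.06 and *Sorl1* 0.03. With the colours' sexes, *App* was 0.03, *Picalm* 0.06 and *Sorl1* 0.09 in females, and the interaction of *Sorl1* was 0.07. With quantile normalization *Apoe* was -0.06 in females and 0.00 in males. Leaving out single libraries, the *Adam10* to *Bace1* log2 ratio ranged from -0.03 to 0.04, *Apoe* to *Clu* from -0.23 to -0.08 and *Sorl1* to *App* from 0.01 to 0.15. The genes whose sign turned when a single library was left out ranged as *Mapt* from -0.05 to 0.03, *Apoe* from -0.05 to 0.05 and *Sorl1* from -0.01 to 0.12 with both sexes. In females they ranged as *Mapt* from -0.02 to 0.08, *App* from -0.10 to 0.04, *Bace1* from -0.08 to 0.07, *Apoe* from -0.01 to 0.07, *Bin1* from -0.01 to 0.06, *Picalm* from -0.21 to 0.06 and *Sorl1* from -0.08 to 0.03. In males they ranged as *Mapt* from -0.12 to 0.02, *Apoe* from -0.16 to 0.09, *Bin1* from -0.02 to 0.08 and *Picalm* from -0.24 to 0.00. TPM keeps no depth, so what counting error limits is unknown.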

Other observations

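Several genes around these pathways had estimates that jumped between replicates. *Mef2c*, at an Alzheimer risk locus, had 2.01, 1.91 and 2.67 TPM in male WT libraries and 4.68e-05, 1.41 and 1.73e-09 TPM in male cKO libraries. *Mark4*, a kinase gene of the tau list, had 2.65 TPM in female WT replicate 2 and 1.40 TPM in male WT replicate 2 and was at or near 0 in the other 10 libraries. The oligodendrocyte gene *Mag* had 0.00237 TPM in male WT replicate 2 and 4.39 to 28.6 TPM elsewhere. None of the 9 genes was listed at 0 in any library.

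*Lrp8*, an APOE receptor gene, had 60.1 TPM in male cKO replicate 3 and 27.7 to 36.5 TPM in the other 11 libraries, and *Itm2b* had 425 TPM in that library and 532 to 581 TPM in the others. It is the library with the lowest *Apoe* and *Picalm* and the highest *Sorl1* and *Gfap*. *Lrp8* was chosen after its values were seen.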
